A study of Homo sapiens with 4 samples.

Results

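The collagen genes are the protein-coding genes whose symbol is COL, a number, A and a number, in the deposited expression table. There are 44 of them among 19945 protein-coding genes and 58884 gene IDs in all, and they were chosen by name, with no use of their values. RNA of the established human thyroid cancer lines B-CPAP and TPC-1 was sequenced after flasks of each line had been submerged at 40 °C or at 37 °C. The design has 4 groups of 1 library each: B-CPAP at 40 °C, B-CPAP at 37 °C, TPC-1 at 40 °C and TPC-1 at 37 °C. How long the flasks were kept there is labelled as 15 min in 1 place, 20 min in another and 24 h in the treatment label, and is not settled here. The labels name no treatment other than temperature and no cells other than the line.

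Collagens are secreted or membrane-bound proteins of the extracellular matrix whose alpha chains wind around each other as a triple helix. Fibrillar collagens build the cables of connective tissue, collagen IV forms the sheet of the basement membrane on which thyroid follicles rest, and collagen VI forms beaded filaments close to cells. Fibroblasts make most of the fibrillar collagen of the thyroid and its tumours, while epithelial cells contribute mainly to the basement membrane.

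Estimated depth ran from 20704177 to 24466189 reads per library. Levels are in TPM, which are scaled by gene length, so comparisons between genes rest on the exon lengths used. PAX8, a thyroid transcription factor, stood at 98.9 and 112 TPM in B-CPAP at 40 and 37 °C, against 267 and 284 TPM in TPC-1 at 40 and 37 °C. NKX2-1, another thyroid factor, stood at 7.90 and 8.60 TPM in B-CPAP and was listed at 0 in TPC-1. TSHR and SLC5A5, the TSH receptor and the iodide transporter, were at or near 0 in every library, and TG, the hormone precursor, was at most 0.746 TPM. Of 5 endothelial and 5 leukocyte markers none reached a mean of 1 TPM over all libraries. KDR, an endothelial marker, stood at 1.44 and 1.14 TPM in B-CPAP, against 0.0527 and 0.328 TPM in TPC-1. CD14, a leukocyte marker, stood at 0.434 and 0.325 TPM in B-CPAP, against 1.37 and 0.502 TPM in TPC-1. No other of these markers reached 1 TPM in any library.

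The lines differed in which collagen classes held most of their collagen message. All 44 genes together summed to 888 and 869 TPM in B-CPAP at 40 and 37 °C, against 1251 and 1377 TPM in TPC-1 at 40 and 37 °C. In B-CPAP collagen VI held 31.7 and 36.9% of that sum, fibrillar collagens 31.4 and 28.1% and collagen IV 30.1 and 29.3%. In TPC-1 collagen VI held 63.0 and 67.7%, collagen IV 21.0 and 18.1% and fibrillar collagens 4.08 and 3.39%. The transmembrane collagens were close to absent from B-CPAP, at 0.733 and 0.690 TPM, against 65.6 and 63.6 TPM in TPC-1. In bulk RNA, fewer cells that express a gene and less RNA per cell cannot be told apart.

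**Figure D1:**
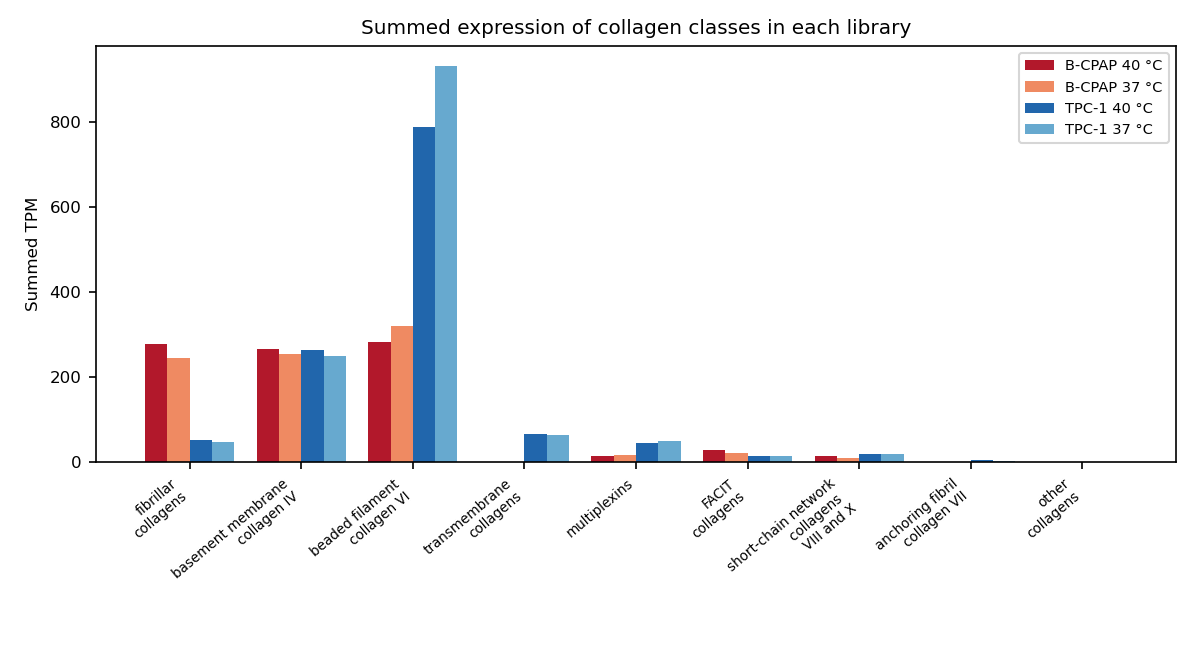
Summed TPM of each collagen class in each library, with B-CPAP at 40 and 37 °C left of TPC-1 at 40 and 37 °C and 1 library per bar. Fibrillar collagens summed to 279 and 244 TPM in B-CPAP, against 51.0 and 46.6 TPM in TPC-1, while collagen VI summed to 282 and 321 TPM in B-CPAP, against 788 and 933 TPM in TPC-1.

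The question of which collagens differ between the lines was put to limma on log2(TPM + 1), with temperature as a block. Differences are B-CPAP minus TPC-1 on that scale with 95% intervals, and p-values are adjusted over all 14912 genes with a mean of at least 1 TPM. Of the 44 collagens, 23 passed this minimum and 21 did not. Of the 23, 21 had an adjusted p under 0.05 by limma, 11 of them higher and 10 lower in B-CPAP, where 62.7% of all tested genes passed, 29.9% higher and 32.8% lower. At least 2-fold apart in the same direction at both temperatures were 17 collagens, 9 higher and 8 lower, against 27.9% of all tested genes, 13.5% higher and 14.4% lower. The median difference was -0.20 over the tested collagens and -0.05 over all tested genes. These counts describe the collagens and support no statement about them as a set, because 6 passed the minimum with a mean under 1 TPM in TPC-1 and 4 with a mean under 1 TPM in B-CPAP, and those had to differ. The remaining 13 had a mean of at least 1 TPM in both lines. The 2 libraries a line differ in temperature, 1 residual degree of freedom is left per gene, and no label names separate cultures. The spread that is left is how far the temperature difference differs between the lines. It is moderated by limma over all genes, with 4.01 prior degrees of freedom. The p-values thus measure no spread between cultures of a line. Fits that leave out 1 library carry no block for temperature, because 3 libraries would then leave no residual degree of freedom. With all 4 libraries and no block, 18 collagens passed, where 50.1% of all tested genes did. With 1 library left out as well, 18 collagens passed without B-CPAP at 40 °C, 17 without B-CPAP at 37 °C, 15 without TPC-1 at 40 °C and 16 without TPC-1 at 37 °C. In the same order 38.4%, 34.2%, 19.5% and 20.2% of all tested genes did.

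**Figure D2:**
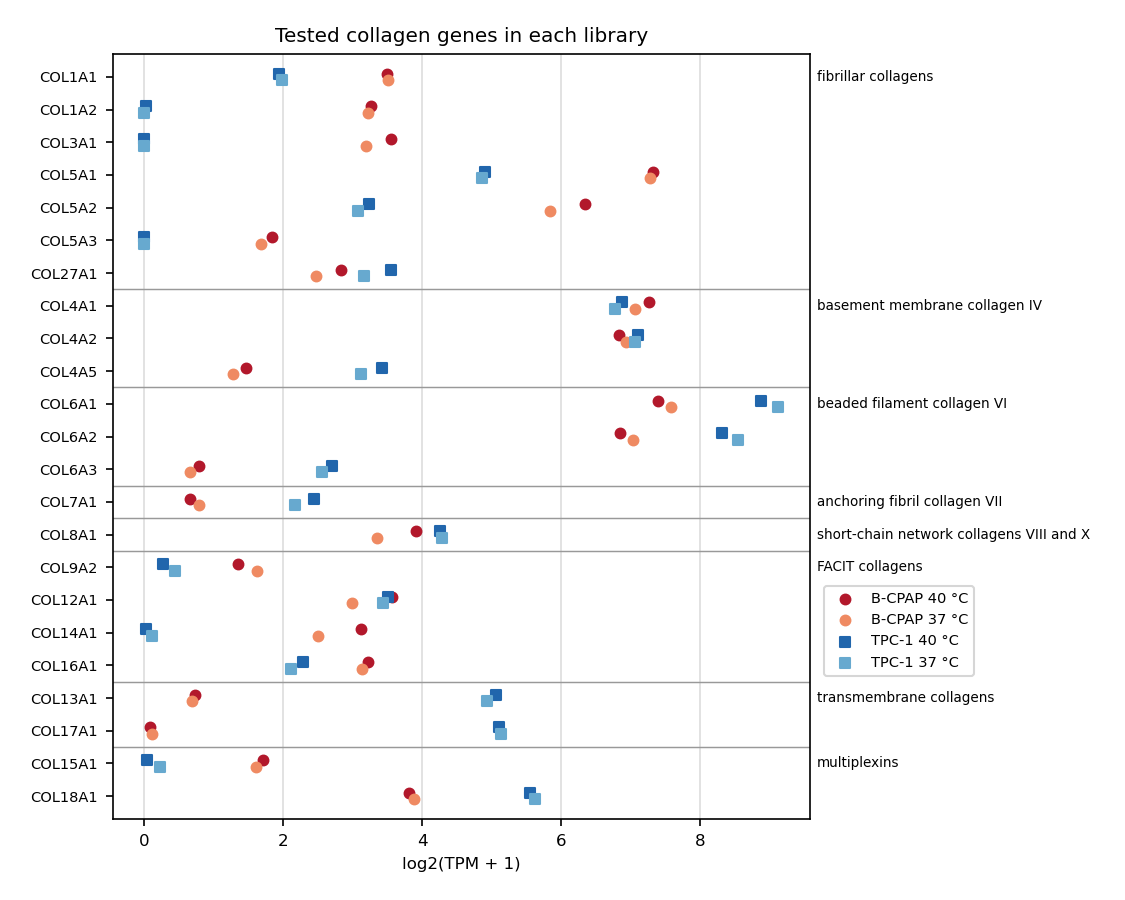
Levels of the 23 tested collagens on the log2(TPM + 1) axis, grouped by structural class, with circles for B-CPAP and squares for TPC-1 and the darker shade for 40 °C. In most rows the circles and the squares stand apart while the shades of 1 line lie close together; COL12A1 and COL4A2 are the rows in which the difference between lines did not pass the test.

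Of the 11 fibrillar genes 7 were tested, with a median difference of 2.41. Of the 7, 6 were higher and 1 lower in B-CPAP, where 29.9% and 32.8% of all tested genes were. COL1A2, COL3A1 and COL5A3 passed the minimum through B-CPAP alone, so the direction of these was fixed by it. COL5A1, the major chain of collagen V, which starts and limits the width of collagen I fibrils, was the highest of the class in every library. It stood at 159 and 153 TPM in B-CPAP at 40 and 37 °C, against 28.9 and 28.2 TPM in TPC-1 at 40 and 37 °C. The libraries of 1 line lay within a few TPM of each other and the lines did not overlap. The difference was 2.41 (2.19 to 2.64, limma adjusted p = 6.15e-05), a TPM ratio of 5.50 at 40 °C and 5.45 at 37 °C. COL5A2, the second collagen V chain, stood at 80.0 and 56.2 TPM in B-CPAP, against 8.37 and 7.41 TPM in TPC-1. Its difference was 2.94 (2.59 to 3.28, limma adjusted p = 0.000103), and B-CPAP at 40 °C was its highest library. COL5A3, a rarer collagen V chain, stood at 2.59 and 2.21 TPM in B-CPAP and was listed at 0 in both TPC-1 libraries (limma adjusted p = 0.00335).

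The promoters of COL5A1 and COL5A3 are shown because these chains of 1 collagen type differ between the lines in the same direction. For COL5A3 that direction was fixed by the minimum, and no RefSeq promoter was matched to COL5A2. Both promoters shown were picked after their values were seen. Each is the 250 bases before a transcript start in RefSeq (GRCh38.p14), COL5A1 at chr9:134641553-134641802 on the plus strand and COL5A3 at chr19:10010505-10010754 on the minus strand. Capitals mark matches on either strand to TATAAA (the core of a TATA box), CCAAT and GGGCGG (a GC box), and the matches are letters found, not sites shown to be bound.
COL5A1: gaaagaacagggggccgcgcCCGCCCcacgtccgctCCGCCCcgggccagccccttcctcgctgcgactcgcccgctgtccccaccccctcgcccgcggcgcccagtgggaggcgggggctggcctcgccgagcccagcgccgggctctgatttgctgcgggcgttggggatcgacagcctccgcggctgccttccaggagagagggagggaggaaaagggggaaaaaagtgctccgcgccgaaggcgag
COL5A3: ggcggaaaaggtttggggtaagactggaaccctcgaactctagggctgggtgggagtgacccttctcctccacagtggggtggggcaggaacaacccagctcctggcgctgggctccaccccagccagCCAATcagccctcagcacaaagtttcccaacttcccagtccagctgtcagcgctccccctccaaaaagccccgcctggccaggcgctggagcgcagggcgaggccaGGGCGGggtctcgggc
The COL5A1 window is 74.0% G and C and holds 2 GC boxes on the reverse strand, and COL5A1 has a second RefSeq window that is not printed. The COL5A3 window is 66.0% G and C and holds 1 GC box and 1 CCAAT. Neither holds TATAAA. RefSeq promoter windows were matched to 32 of the 44 collagens, 44 windows in all. GGGCGG occurred in 24 of these (54.5%), against 54.2% of 21558 windows of protein-coding genes. CCAAT occurred in 12 (27.3%), against 33.0%, and TATAAA in 8 (18.2%), against 8.97%.

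Collagen I and collagen III, the main fibrils of skin, bone and vessel wall, were low in both lines beside collagen V. COL1A1 stood at 10.3 and 10.4 TPM in B-CPAP, against 2.82 and 2.95 TPM in TPC-1 (difference 1.55, 1.14 to 1.95, limma adjusted p = 0.000982). That call held with no block for temperature, and was lost when TPC-1 was also left out at 40 °C (limma adjusted p = 0.0609) or at 37 °C (limma adjusted p = 0.0561). COL1A2, the partner chain of COL1A1 in collagen I, stood at 8.56 and 8.31 TPM in B-CPAP. In TPC-1 it was at 0.0155 TPM at 40 °C, which is 1 estimated read, and listed at 0 at 37 °C (limma adjusted p = 0.000271). B-CPAP thus held messages of both collagen I chains, at 1.20 and 1.25 TPM of COL1A1 per TPM of COL1A2, whereas the TPC-1 libraries held COL1A1 with 1 read of COL1A2 between them. COL3A1, the chain of collagen III, stood at 10.7 and 8.15 TPM in B-CPAP and was listed at 0 in both TPC-1 libraries (limma adjusted p = 0.000278). COL3A1 and COL5A2 are neighbours on chromosome 2 whose ends face each other, 19149 bases apart (COL3A1 at chr2:188974320-189012746 on the plus strand, COL5A2 at chr2:189031896-189225312 on the minus strand, GENCODE 29 on GRCh38), and both were higher in B-CPAP.

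COL27A1, a fibrillar chain best known from cartilage, went the other way. It stood at 6.08 and 4.54 TPM in B-CPAP, against 10.7 and 7.94 TPM in TPC-1. Both B-CPAP libraries were below both TPC-1 libraries, but the difference of -0.71 (-1.09 to -0.33, limma adjusted p = 0.0108) lost its call without the block for temperature (limma adjusted p = 0.0538), and no fit that also left out 1 library called it (limma adjusted p from 0.120 to 0.365). The fibrillar genes below the minimum were COL2A1, COL11A1, COL11A2 and COL24A1. COL11A1, a chain of cartilage fibrils, reached 1.37 and 0.531 TPM in B-CPAP and was listed at 0 in TPC-1, and no other untested collagen was as high in any library.

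Fibroblast markers were measured beside the fibrillar collagens. The 9 markers summed to 439 and 494 TPM in B-CPAP, against 187 and 196 TPM in TPC-1. Of 7 tested, 4 were higher and 1 lower in B-CPAP, where 29.9% and 32.8% of all tested genes were. THY1, LUM and FAP passed the minimum through B-CPAP alone, so their direction was fixed by it. THY1, a surface protein of fibroblasts and other cells, made up most of the B-CPAP sum, at 301 and 362 TPM, against 0.321 and 0.251 TPM in TPC-1. PDPN made up most of the TPC-1 sum, at 1.31 and 1.19 TPM in B-CPAP, against 161 and 164 TPM in TPC-1. DCN and PDGFRA were at most 0.159 and 0.0449 TPM in any library. S100A4 was higher in B-CPAP, at 108.3 and 107.7 TPM, against 7.502 and 11.01 TPM in TPC-1 (limma adjusted p = 9.64e-05). ACTA2 stood at 8.45 and 9.91 TPM in B-CPAP, against 10.9 and 13.9 TPM in TPC-1 (limma adjusted p = 0.052). PDGFRB stood at 4.65 and 4.15 TPM in B-CPAP, against 6.72 and 6.19 TPM in TPC-1 (limma adjusted p = 0.0527). LUM stood at 12.4 and 6.97 TPM and FAP at 3.06 and 1.54 TPM in B-CPAP, and both were listed at 0 in TPC-1. The part of these cell-type markers in the fibrillar difference was not tested.

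Collagen IV summed to like levels in both lines, at 267 and 255 TPM in B-CPAP at 40 and 37 °C, against 263 and 249 TPM in TPC-1 at 40 and 37 °C. Its main chains COL4A1 and COL4A2, which form the collagen IV of nearly all basement membranes, are transcribed away from each other on chromosome 13 (COL4A1 at chr13:110148963-110307233 on the minus strand, COL4A2 at chr13:110305812-110513209 on the plus strand, GENCODE 29 on GRCh38). In RefSeq (GRCh38.p14) the stretch between their starts, chr13:110307158-110307283, has 126 bases and serves as the promoter of both. It is printed on the plus strand, because a single stretch lies between chains whose levels did not keep 1 ratio, and capitals mark 1 CCAAT and 1 GGGCGG.
COL4A1 and COL4A2: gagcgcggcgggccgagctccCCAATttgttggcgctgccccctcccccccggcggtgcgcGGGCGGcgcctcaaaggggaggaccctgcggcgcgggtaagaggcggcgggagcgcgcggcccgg
The stretch is 80.2% G and C and holds no TATAAA.

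COL4A1 stood at 152 and 133 TPM in B-CPAP, against 116 and 108 TPM in TPC-1. COL4A2 stood at 113 and 121 TPM in B-CPAP, against 136 and 132 TPM in TPC-1. In TPM COL4A1 was the higher of the pair in both B-CPAP libraries and COL4A2 the higher in both TPC-1 libraries. Which chain is higher rests on exon lengths of 14738 bases for COL4A1 and 19293 bases for COL4A2. In B-CPAP COL4A1 had 15707 and 14593 estimated reads at 40 and 37 °C, and COL4A2 had 15187 and 17353. How the ratio differs between the lines does not rest on these lengths. There were 1.35 and 1.10 TPM of COL4A1 per TPM of COL4A2 in B-CPAP, against 0.850 and 0.821 in TPC-1. The COL4A1 difference of 0.34 (0.13 to 0.55, limma adjusted p = 0.016) lost its call without the block for temperature (limma adjusted p = 0.0844), and no fit that also left out 1 library called it (limma adjusted p from 0.0683 to 0.368). The COL4A2 difference of -0.20 (-0.42 to 0.01, limma adjusted p = 0.0853) missed the threshold, and passed it with protein-coding genes alone (limma adjusted p = 0.0461).

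The other collagen IV pairs were far lower. COL4A5, a chain of the collagen IV of kidney and inner ear whose mutation causes Alport syndrome, stood at 1.77 and 1.41 TPM in B-CPAP, against 9.75 and 7.66 TPM in TPC-1. The lines did not overlap, with a difference of -1.90 (-2.35 to -1.45, limma adjusted p = 0.000718). COL4A6, its neighbour on chromosome X on the opposite strand, stood at 0.400 and 0.217 TPM in B-CPAP, against 0.112 and 0.0713 TPM in TPC-1, and was not tested. TPC-1, the line with more COL4A5, had the lower listed COL4A6. Their RefSeq starts have 379 bases between them, of which the 250 before the COL4A5 start lie at chrX:108439588-108439837 (GRCh38.p14). This window is printed on the plus strand for comparison with the stretch between COL4A1 and COL4A2.
COL4A5 and COL4A6: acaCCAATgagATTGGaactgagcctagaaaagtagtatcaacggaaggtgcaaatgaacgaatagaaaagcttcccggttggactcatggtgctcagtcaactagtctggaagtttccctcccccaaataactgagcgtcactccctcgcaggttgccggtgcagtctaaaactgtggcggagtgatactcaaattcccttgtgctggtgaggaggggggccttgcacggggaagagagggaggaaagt
It is 51.2% G and C, and its capitals mark 2 CCAAT, 1 of them read on the reverse strand as ATTGG, with no TATAAA or GGGCGG. COL4A3 and COL4A4, the third head-to-head pair, were below the minimum, with COL4A4 at 0.0709 and 0.0399 TPM in B-CPAP, against 0.928 and 0.788 TPM in TPC-1.

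Collagen VI, whose beaded filaments link cells to the surrounding matrix, was lower in B-CPAP in each of its 3 tested chains. Of these, COL6A3 passed the minimum through TPC-1 alone, so its direction was fixed by it. COL6A1 was the highest of all collagens in every library. It stood at 167 and 191 TPM in B-CPAP, against 467 and 556 TPM in TPC-1, with a difference of -1.51 (-1.68 to -1.34, limma adjusted p = 9.64e-05). COL6A2, its neighbour 93046 bases downstream on chromosome 21, stood at 114 and 129.5 TPM in B-CPAP, against 316 and 372 TPM in TPC-1 (difference -1.49, -1.67 to -1.30, limma adjusted p = 0.000118). Their ratio differed little between the libraries, at 1.46 and 1.47 TPM of COL6A1 per TPM of COL6A2 in B-CPAP, against 1.48 and 1.49 in TPC-1. COL6A3, the large chain without which collagen VI of muscle and skin is not assembled, was scarce beside them. It stood at 0.728 and 0.580 TPM in B-CPAP, against 5.52 and 4.91 TPM in TPC-1 (difference -1.91, -2.44 to -1.38, limma adjusted p = 0.00118). COL6A5 was listed at 0 in every library and COL6A6 was at most 0.0294 TPM.

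The transmembrane collagens COL13A1 and COL17A1 were under 1 TPM in B-CPAP and near 30 TPM in TPC-1. Both passed the minimum through TPC-1 alone, so their direction was fixed by it. COL17A1, a component of the hemidesmosomes that fix epithelial cells to the basement membrane, stood at 0.0607 and 0.0759 TPM in B-CPAP, which are 3 and 4 estimated reads. In TPC-1 it stood at 33.2 and 34.0 TPM. The difference was -5.02 (-5.44 to -4.60, limma adjusted p = 5.01e-05). COL13A1, found at cell adhesion sites and the neuromuscular junction, stood at 0.655 and 0.615 TPM in B-CPAP, against 32.3 and 29.5 TPM in TPC-1. Its difference was -4.29 (-4.68 to -3.89, limma adjusted p = 6.15e-05), and for both genes the libraries of 1 line were close to each other. In TPC-1 COL17A1 had rank 6 and COL13A1 rank 7 among the collagens at each temperature. COL23A1 and COL25A1, the other members of the class, were at most 0.0480 TPM in any library.

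The promoters of these genes are shown because both levels differ widely between the lines; they too were picked after their values were seen. COL17A1 is read at chr10:104085881-104086130 on the minus strand and COL13A1 at chr10:69801656-69801905 on the plus strand (RefSeq, GRCh38.p14), and the capitals mark the same motifs as above.
COL17A1: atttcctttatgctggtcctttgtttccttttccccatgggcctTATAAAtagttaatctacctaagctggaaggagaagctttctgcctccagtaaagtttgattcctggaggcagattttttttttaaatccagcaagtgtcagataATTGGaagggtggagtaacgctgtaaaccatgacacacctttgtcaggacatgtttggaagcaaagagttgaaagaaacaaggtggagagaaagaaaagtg
COL13A1: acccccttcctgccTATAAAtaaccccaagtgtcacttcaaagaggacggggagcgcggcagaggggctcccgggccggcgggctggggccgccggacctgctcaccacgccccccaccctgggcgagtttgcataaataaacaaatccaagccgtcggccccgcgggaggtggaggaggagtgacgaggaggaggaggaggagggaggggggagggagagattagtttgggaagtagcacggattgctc
Both windows hold 1 TATAAA, and the COL17A1 window also holds 1 CCAAT on the reverse strand, read as ATTGG. They differ in composition, with 40.4% G and C before COL17A1 and 64.0% before COL13A1. Nothing about the use of either motif was measured.

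Epithelial markers were measured beside COL17A1. The 6 markers summed to 1205 and 1560 TPM in B-CPAP, against 381 and 457 TPM in TPC-1. Of 3 tested, 2 were higher and 1 lower in B-CPAP, where 29.9% and 32.8% of all tested genes were. KRT7, a keratin of simple epithelia, stood at 589 and 754 TPM in B-CPAP, against 5.15 and 4.84 TPM in TPC-1, the opposite direction to COL17A1. KRT8 was likewise higher in B-CPAP, at 431 and 570 TPM, against 139 and 168 TPM in TPC-1. KRT18 went the way of COL17A1, at 183 and 235 TPM in B-CPAP, against 236 and 283 TPM in TPC-1 (difference -0.32, limma adjusted p = 0.0141). Of the untested markers, KRT19 was listed lower in B-CPAP, at 0.0612 and 0.287 TPM, against 0.963 and 1.42 TPM in TPC-1, and EPCAM higher. CDH1, the cadherin of epithelial junctions, was at most 0.0439 TPM in any library. The part of these markers in the COL17A1 difference was not tested.

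Of the multiplexins, basement membrane collagens that carry sugar chains, COL18A1 was lower and COL15A1 higher in B-CPAP. COL18A1, from which endostatin is cut, stood at 13.0 and 13.8 TPM in B-CPAP, against 45.7 and 48.4 TPM in TPC-1. The difference was -1.74 (-2.01 to -1.46, limma adjusted p = 0.000239). Of its exon bases 16.4% are shared with SLC19A1 on the opposite strand, and because the library kit does not mark strand, reads there cannot be told apart. COL15A1 stood at 2.28 and 2.05 TPM in B-CPAP, against 0.0260 and 0.174 TPM in TPC-1 (difference 1.53, 0.84 to 2.21, limma adjusted p = 0.00575). It passed the minimum through B-CPAP alone, so its direction was fixed by that.

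FACIT collagens sit on the surface of fibrils and do not form fibrils alone. Of 10 genes 4 were tested and 3 were higher in B-CPAP, where 29.9% of all tested genes were. Of the 3, COL14A1 and COL9A2 passed the minimum through B-CPAP alone, so their direction was fixed by it. COL14A1, which binds collagen fibrils in tendon and skin, stood at 7.66 and 4.64 TPM in B-CPAP, against 0.0170 and 0.0811 TPM in TPC-1 (difference 2.74, 2.04 to 3.43, limma adjusted p = 0.000893). COL16A1, a minor fibril-associated chain, stood at 8.28 and 7.78 TPM in B-CPAP, against 3.87 and 3.32 TPM in TPC-1. Its difference of 0.98 (0.56 to 1.39, limma adjusted p = 0.00472) was called with all libraries and no block, and was not called when 1 library was left out as well (limma adjusted p from 0.0551 to 0.139). COL9A2, a cartilage chain, stood at 1.56 and 2.07 TPM in B-CPAP, against 0.205 and 0.353 TPM in TPC-1 (difference 1.13, 0.47 to 1.79, limma adjusted p = 0.0141), a call lost with TPC-1 at 40 °C left out and no block (limma adjusted p = 0.0537). COL12A1, a relative of COL14A1 found in tendon and tumour stroma, did not separate the lines, at 10.8 and 6.90 TPM in B-CPAP, against 10.4 and 9.87 TPM in TPC-1. Its difference was -0.20 (-0.66 to 0.26, limma adjusted p = 0.363), and without B-CPAP at 37 °C it was 0.09.

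Collagens VII and VIII were lower in B-CPAP. Of these, COL7A1 passed the minimum through TPC-1 alone, so its direction was fixed by it. COL7A1, the chain of the anchoring fibrils under skin epithelium, stood at 0.581 and 0.726 TPM in B-CPAP, against 4.42 and 3.48 TPM in TPC-1 (difference -1.58, -2.18 to -0.98, limma adjusted p = 0.00335). COL8A1, a short chain of vessel wall and cornea, stood at 14.0 and 9.23 TPM in B-CPAP, against 18.2 and 18.5 TPM in TPC-1. Its difference of -0.64 (-1.10 to -0.19, limma adjusted p = 0.0268) came with a TPM ratio of B-CPAP over TPC-1 of 0.769 at 40 °C and 0.499 at 37 °C. That call was lost without the block for temperature (limma adjusted p = 0.0661). Without the block it was also missed with TPC-1 at either temperature or B-CPAP at 37 °C left out (limma adjusted p from 0.0948 to 0.319). Among the 21 untested collagens 5 were listed at 0 in every library, namely COL2A1, COL6A5, COL9A1, COL22A1 and COL28A1. Apart from COL11A1, no untested collagen reached 1 TPM in any library.

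**Figure D3:**
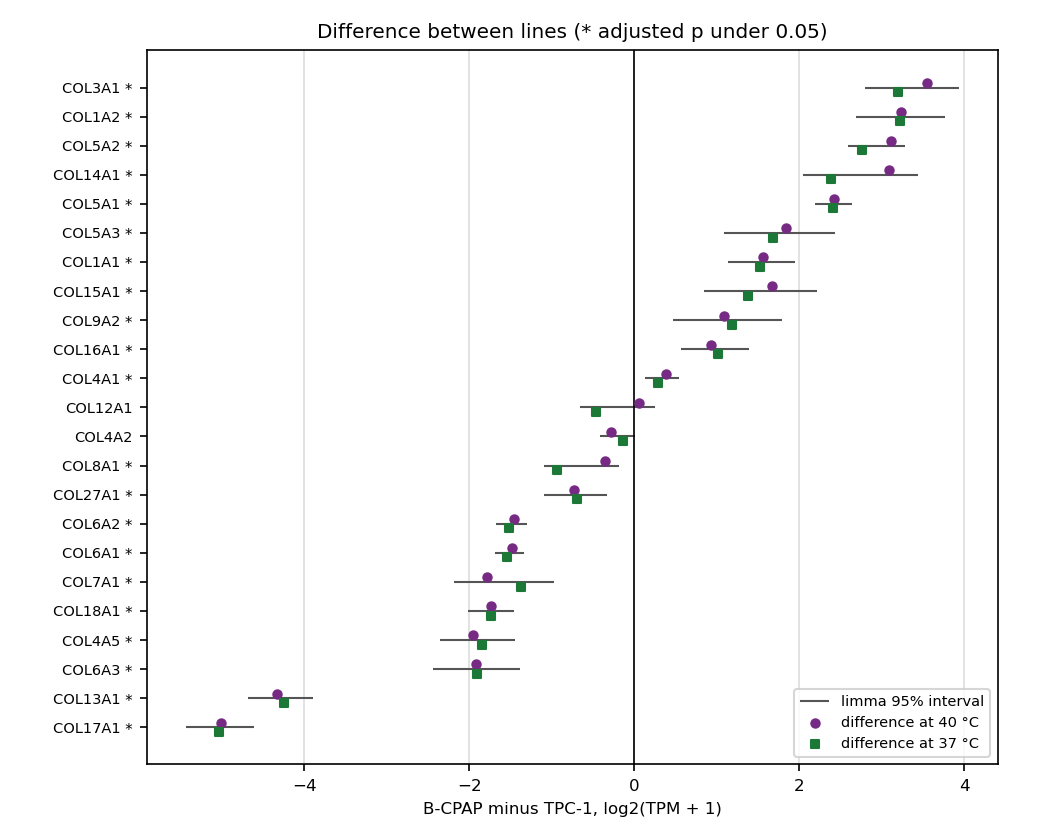
Difference between the lines for each tested collagen, B-CPAP minus TPC-1 on the log2(TPM + 1) axis, with circles for the difference at 40 °C, squares for that at 37 °C, lines for limma 95% intervals and an asterisk at an adjusted p under 0.05. The fitted differences run from -5.02 for COL17A1 to 3.37 for COL3A1, and the intervals of COL4A2 and COL12A1 include 0; for genes listed at 0 in TPC-1 the size depends on the pseudocount.

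Between 40 °C and 37 °C, no collagen passed the test over both lines. By limma with line as a block 0 of 23 collagens had an adjusted p under 0.05, where 0% of all 14912 tested genes passed. A response confined to a single line counts as spread in this fit. At an unadjusted p under 0.05 there were 2, COL6A1 and COL6A2, where 19.5% of all tested genes passed. COL6A1 had a log2 difference, 40 °C minus 37 °C, of -0.22 (limma adjusted p = 0.223) and COL6A2 of -0.21 (limma adjusted p = 0.239). The median difference was 0.08 over the tested collagens and 0.08 over all tested genes.

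Within a line each temperature has 1 library, so ratios of 40 °C over 37 °C have no replicate check, and their 95% intervals, from estimated reads, cover counting error only and compare libraries. Of the 23 tested collagens none was 2-fold apart on the log2(TPM + 1) scale in B-CPAP, where 3.9% of all tested genes were, or in TPC-1, where 3.48% were. On plain TPM, which weights low counts more, COL14A1 had a ratio of 0.209 (0.00531 to 2.64) and COL15A1 of 0.150 (0.00332 to 1.16) in TPC-1, each near 0 there. In B-CPAP 8 of the 23 had a TPM ratio with an interval above 1, against 36.4% of all tested genes, and 3 below 1, against 21.8%. In TPC-1 7 of the 23 had an interval above 1, against 21.5%, and 2 below 1, against 16%. Among the untested collagens in B-CPAP, COL11A1 had a ratio of 2.58 (1.73 to 3.91), COL24A1 of 11.7 (1.71 to 505) on 11 reads at 40 °C, against 1 at 37 °C, and COL8A2, a short-chain collagen of the cornea, of 0.467 (0.230 to 0.900). In TPC-1 no untested collagen had an interval on either side of 1. COL6A1 and COL6A2 were the tested collagens with an interval below 1 in both lines. COL6A1 had a TPM ratio of 0.874 (0.845 to 0.904) in B-CPAP and 0.840 (0.822 to 0.859) in TPC-1. COL6A2 had a ratio of 0.883 (0.848 to 0.920) in B-CPAP and 0.849 (0.827 to 0.872) in TPC-1.

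The tested collagens with an interval above 1 in both lines were COL27A1 and COL4A1. COL27A1 had a TPM ratio of 1.34 (1.18 to 1.51) in B-CPAP and 1.35 (1.22 to 1.49) in TPC-1. COL4A1 had a ratio of 1.15 (1.12 to 1.17) in B-CPAP and 1.07 (1.04 to 1.10) in TPC-1. Among the tested collagens the highest ratios in B-CPAP were 1.65 (1.42 to 1.91) for COL14A1, 1.57 (1.42 to 1.74) for COL12A1, 1.51 (1.37 to 1.68) for COL8A1 and 1.42 (1.36 to 1.49) for COL5A2. In TPC-1 the ratios of COL12A1, COL8A1 and COL5A2 were 1.05 (0.951 to 1.17), 0.982 (0.900 to 1.07) and 1.13 (0.970 to 1.31), while COL14A1 was near 0 there. Whether the response differs between the lines was not tested, since 1 library per line and temperature leaves no spread for that test. In B-CPAP there were 1.99 TPM of COL5A1 per TPM of COL5A2 at 40 °C, against 2.73 at 37 °C, while in TPC-1 there were 3.46 at 40 °C, against 3.80 at 37 °C.

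The ratios moved with the base composition of the transcripts. GC content is that of the longest transcript of each gene. Across 11819 protein-coding genes Spearman's rho between GC content and the 40 °C minus 37 °C difference was -0.80 in B-CPAP and -0.59 in TPC-1. Across the 23 tested collagens it was -0.74 in B-CPAP and -0.21 in TPC-1, genes that share the same libraries and are not independent replicates. The longest transcripts of the tested collagens were 41.7 to 67.2% G and C with a median of 59.0%, against a median of 48.4% for all tested genes. COL6A1 at 63.5% and COL6A2 at 66.4% are among the richest, and COL12A1 at 46.3%, COL14A1 at 46.7%, COL8A1 at 46.8% and COL5A2 at 47.9% are among the poorest. The poorest of all, COL1A2 at 41.7%, had a TPM ratio of 1.03 (0.924 to 1.15) in B-CPAP, and it is not in the plot of temperature ratios because TPC-1 held 1 read of it. After the trend with GC content was taken out, the log2 difference of COL6A1 was 0.10 in B-CPAP and -0.10 in TPC-1, and that of COL6A2 was 0.15 in B-CPAP and -0.07 in TPC-1. COL27A1, at 61.3% G and C, then stood at 0.61 in B-CPAP and 0.52 in TPC-1, and COL12A1 at 0.39 in B-CPAP and 0.00436 in TPC-1.

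**Figure D4:**
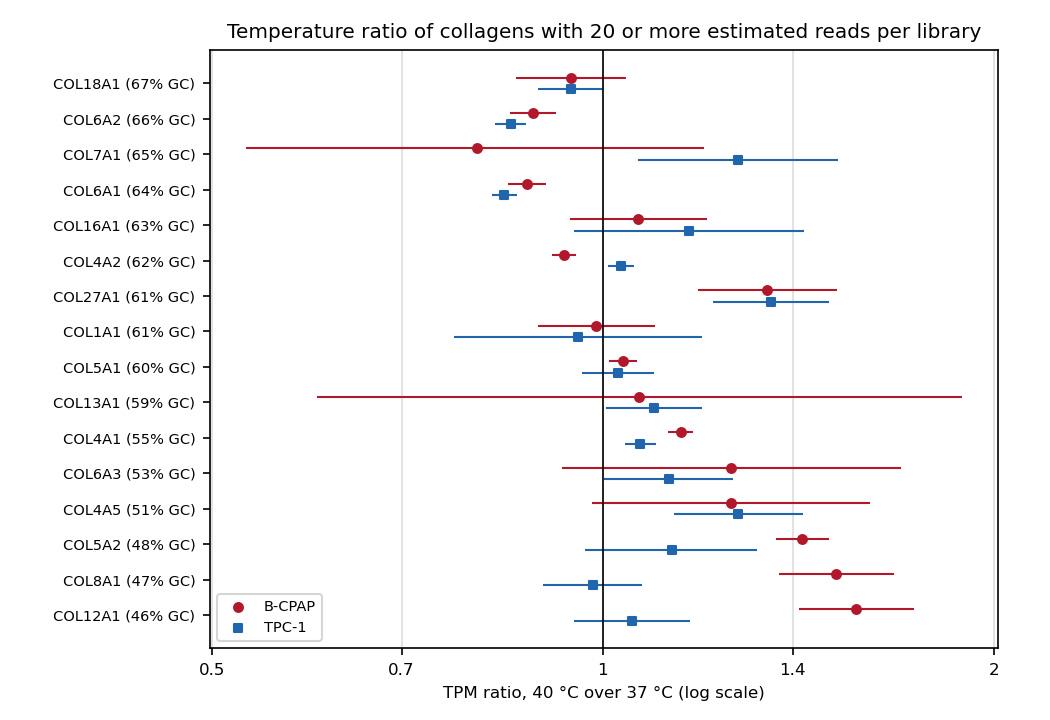
TPM ratio of 40 °C over 37 °C on a log axis for the 16 collagens with at least 20 estimated reads in every library. Rows are ordered by GC content of the longest transcript, from high at the top to low at the bottom. Circles are B-CPAP and squares TPC-1, with 95% counting intervals from 1 library per temperature; COL6A1 and COL6A2 lie left of 1 in both lines and COL27A1 right of 1 in both.

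Genes that make, fold, cut, cross-link, bind and degrade collagen were counted in 7 lists of 72 genes, of which 59 were tested. Between the lines 46 passed, 16 higher and 30 lower in B-CPAP by limma, where 29.9% of all tested genes were higher and 32.8% lower. TLL1, ADAMTS2, ADAMTS14, LUM and FMOD passed the minimum through B-CPAP alone, and PXDN, LOXL4, MMP9 and CTSK through TPC-1 alone. The direction of these was fixed by it, so the counts support no statement about the lists as sets. The median difference was -0.34, against -0.05 over all tested genes. Without the block for temperature 42 passed, where 50.1% of all tested genes did. With 1 library left out as well, 22 passed without TPC-1 at 40 °C and 24 without TPC-1 at 37 °C, where 19.5% and 20.2% of all tested genes did. For temperature 0 of the 59 passed by limma, and none was 2-fold apart within a line on the log2(TPM + 1) scale. With a minimum mean of 5 TPM 2 of 48 passed for temperature, where 8.57% of all genes did. With protein-coding genes alone 7 of 59 passed, where 11.4% of all did.

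Of the 7 genes of cross-linking, all tested, 2 were higher and 5 lower in B-CPAP, where 29.9% and 32.8% of all tested genes were. The median difference was -1.64. LOX, the lysyl oxidase that starts the cross-links of collagen I and III, stood at 90.0 and 70.6 TPM in B-CPAP, against 1.69 and 1.22 TPM in TPC-1 (difference 5.05, limma adjusted p = 2.92e-05). PXDN, the peroxidase that forms the sulfilimine bonds of collagen IV, stood at 0.0254 and 0.0833 TPM in B-CPAP, against 130.0 and 129.6 TPM in TPC-1. Its difference was -6.96 (limma adjusted p = 1.93e-05), while its substrate chains COL4A1 and COL4A2 were of like level in both lines. The lysyl oxidase relatives LOXL4 and LOXL1 were lower in B-CPAP. LOXL4 stood at 0.278 and 0.335 TPM in B-CPAP, against 22.4 and 21.6 TPM in TPC-1 (difference -4.14, limma adjusted p = 7.98e-05). LOXL1 stood at 2.79 and 4.97 TPM in B-CPAP, against 48.8 and 60.1 TPM in TPC-1 (difference -3.53, limma adjusted p = 8.07e-05). LOXL3, another relative, was higher in B-CPAP, at 2.94 and 2.97 TPM, against 1.57 and 0.805 TPM in TPC-1 (limma adjusted p = 0.0275).

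Of 9 genes of procollagen processing, 4 were higher and 3 lower in B-CPAP, where 29.9% and 32.8% of all tested genes were. The median difference was 0.28. ADAMTS2, the main enzyme that cuts the N-terminal propeptide of collagen I, stood at 11.8 and 12.2 TPM in B-CPAP, against 0.0593 TPM in TPC-1 at 40 °C and a listed 0 at 37 °C (limma adjusted p = 0.000158). ADAMTS3, a relative with the same kind of activity, stood at 2.33 and 1.55 TPM in B-CPAP, against 12.5 and 9.89 TPM in TPC-1 (difference -2.06, limma adjusted p = 0.000474). The third relative, ADAMTS14, was higher in B-CPAP at 1.98 and 2.22 TPM, against 0.280 and 0.713 TPM in TPC-1 (limma adjusted p = 0.0165). Of the tolloid-like enzymes, which cut C-terminal propeptides, TLL1 stood at 5.06 and 3.74 TPM in B-CPAP and was listed at 0 in TPC-1 (limma adjusted p = 0.00100). TLL2 stood at 2.61 and 1.94 TPM in B-CPAP, against 15.0 and 15.9 TPM in TPC-1 (difference -2.33, limma adjusted p = 0.000395). BMP1, the founding member of the tolloid family, named after its values were seen, was also higher in B-CPAP (difference 0.40, limma adjusted p = 0.0229). FURIN, a protease that activates several of these enzymes, had a difference of -0.63 (limma adjusted p = 0.00305).

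**Figure D5:**
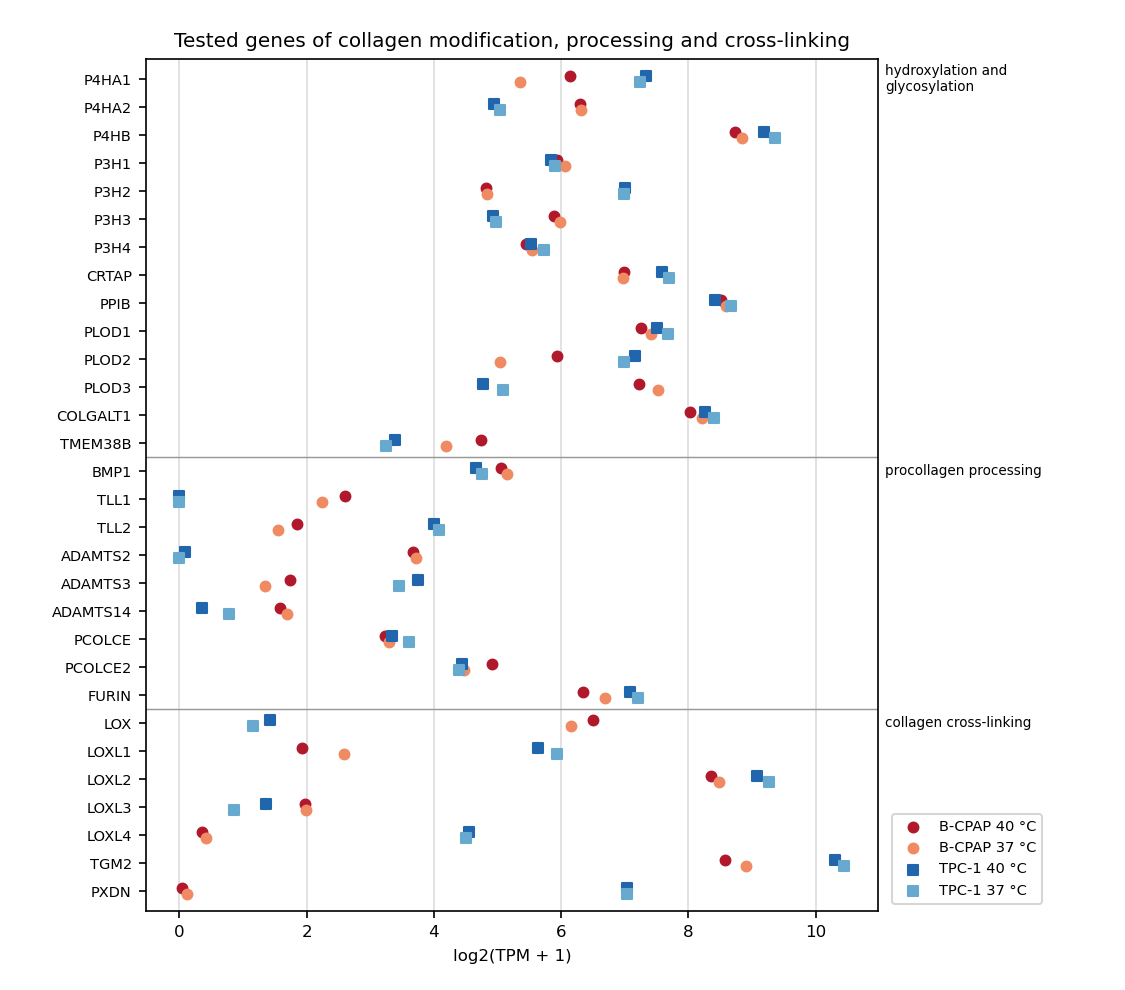
Levels of the tested genes of collagen hydroxylation and glycosylation, procollagen processing and cross-linking on the log2(TPM + 1) axis, with circles for B-CPAP, squares for TPC-1 and the darker shade for 40 °C. LOX lies far to the right in B-CPAP, and PXDN, LOXL4 and LOXL1 lie far to the right in TPC-1.

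Hydroxylation and glycosylation of the chains takes place in the endoplasmic reticulum before the helix closes. Of 16 genes 14 were tested, 4 higher and 7 lower in B-CPAP, where 29.9% and 32.8% of all tested genes were. The median difference was -0.18. PLOD3, a lysyl hydroxylase that also adds sugars and is needed for collagen IV, stood at 148 and 184 TPM in B-CPAP, against 26.5 and 33.2 TPM in TPC-1 (difference 2.44, limma adjusted p = 5.91e-05). P4HA2, a catalytic subunit of prolyl 4-hydroxylase, stood at 77.6 and 78.3 TPM in B-CPAP, against 29.8 and 32.0 TPM in TPC-1 (difference 1.31, limma adjusted p = 0.000361). P4HA1, the alternative subunit, was lower in B-CPAP, at 69.3 and 40.0 TPM, against 161 and 149.8 TPM in TPC-1 (difference -1.54, limma adjusted p = 0.00132). PLOD2, which hydroxylates the telopeptides where cross-links form, stood at 60.4 and 32.0 TPM in B-CPAP, against 142 and 125 TPM in TPC-1 (difference -1.58, limma adjusted p = 0.00148). P3H2, a prolyl 3-hydroxylase of collagen IV, stood at 27.3 and 27.7 TPM in B-CPAP, against 127 and 126 TPM in TPC-1 (difference -2.16, limma adjusted p = 8.22e-05). TMEM38B, a channel protein of the reticulum needed for collagen I modification, had a difference of 1.14 (limma adjusted p = 0.00247). Among the tested catalytic subunits of prolyl 4-hydroxylase, B-CPAP thus had more P4HA2 and TPC-1 more P4HA1. P4HB, its beta subunit, named after its values were seen, was lower in B-CPAP. It stood at 424 and 457 TPM there, against 583 and 655 TPM in TPC-1 (difference -0.49, limma adjusted p = 0.00197).

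All 11 genes of folding and export were tested, 2 higher and 5 lower in B-CPAP, where 29.9% and 32.8% of all tested genes were. The median difference was -0.06. SERPINH1, the collagen chaperone HSP47, stood at 156 and 175 TPM in B-CPAP, against 80.1 and 85.1 TPM in TPC-1 (difference 0.99, limma adjusted p = 0.000488). It is also known as a heat shock gene, and its TPM ratio of 40 °C over 37 °C was 0.890 (0.861 to 0.919) in B-CPAP and 0.941 (0.895 to 0.990) in TPC-1. Over both lines its temperature difference of -0.13 was not called (limma adjusted p = 0.397). Its longest transcript is 56.5% G and C, against a median of 48.4% for all tested genes. The part of GC content in these ratios was not tested. FKBP14, a prolyl isomerase of the reticulum, had a difference of 0.95 (limma adjusted p = 0.00247). MIA3 and MIA2, which load procollagen into carriers at the exit sites, had differences of -0.93 (limma adjusted p = 0.00598) and -0.86 (limma adjusted p = 0.00846), and PDIA3, a disulfide isomerase, of -0.80 (limma adjusted p = 0.00323).

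Of 10 collagen receptor genes 7 were tested, 1 higher and 4 lower in B-CPAP, where 29.9% and 32.8% of all tested genes were. The median difference was -1.10. ITGB1, the beta chain of every collagen-binding integrin, stood at 198 and 117 TPM in B-CPAP, against 729.9 and 613 TPM in TPC-1 (difference -2.13, limma adjusted p = 0.000229). ITGA2, the alpha chain of an integrin that binds collagen I, stood at 4.87 and 3.34 TPM in B-CPAP, against 30.8 and 34.8 TPM in TPC-1 (difference -2.74, limma adjusted p = 0.000310). ITGA11, an alpha chain of fibroblasts that binds fibrillar collagen, was higher in B-CPAP, at 9.76 and 9.73 TPM, against 2.17 and 2.37 TPM in TPC-1 (difference 1.72, limma adjusted p = 0.000809). MRC2, which takes up collagen for breakdown, had a difference of -1.18 (limma adjusted p = 0.000378).

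Of 12 fibril-binding proteoglycans and glycoproteins 6 were tested, 3 higher and 2 lower in B-CPAP, where 29.9% and 32.8% of all tested genes were. The median difference was 0.94. FN1, fibronectin, on which collagen fibrils are laid down, stood at 5382 and 4788 TPM in B-CPAP, against 1427 and 1195 TPM in TPC-1 (difference 1.96, limma adjusted p = 3.17e-05). Its level was above the sum of all collagens in both B-CPAP libraries and in TPC-1 at 40 °C, and below it in TPC-1 at 37 °C. Of the small proteoglycans that bind collagen I and set fibril width, FMOD stood at 2.03 and 2.39 TPM in B-CPAP and was listed at 0 in TPC-1 (limma adjusted p = 0.00412). LUM, with the values given beside the fibroblast markers, was likewise listed at 0 in TPC-1 (limma adjusted p = 0.000454). SPARC, a matrix protein that binds collagens I and IV, had a difference of -0.98 (limma adjusted p = 0.000217), and THBS1, thrombospondin, of -0.35 (limma adjusted p = 0.0153).

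Of 7 collagen-degrading proteases 5 were tested, 0 higher and 4 lower in B-CPAP, where 29.9% and 32.8% of all tested genes were. The median difference was -1.56. MMP9, a gelatinase that also cuts collagen IV, stood at 0.0612 and 0.0574 TPM in B-CPAP, against 11.4 and 13.7 TPM in TPC-1 (difference -3.67, limma adjusted p = 0.000163). CTSK, a lysosomal protease able to cut the intact helix, stood at 0.784 and 0.294 TPM in B-CPAP, against 6.26 and 6.71 TPM in TPC-1 (difference -2.30, limma adjusted p = 0.00100). MMP2, the other gelatinase, stood at 58.9 and 62.1 TPM in B-CPAP, against 175 and 186 TPM in TPC-1 (difference -1.56, limma adjusted p = 0.000135). The remaining call, named after its values were seen, was MMP14, the membrane-bound collagenase that activates MMP2. It stood at 473 and 508 TPM in B-CPAP, against 1014 and 1122 TPM in TPC-1 (difference -1.12, limma adjusted p = 0.000139).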

How the data were processed

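RNA was extracted with RNeasy Plus kits and libraries were made with the TruSeq RNA Library Prep Kit v2, which does not mark strand, per the labels' protocols. Reads were checked and trimmed with FastQC, MultiQC and Trimmomatic 0.38 and counted with featureCounts 2.0.0 on GRCh38, per the submitters' processing notes. The aligner and the annotation release were not given in the sources used here. Values were deposited by the authors as TPM, for 58884 gene IDs in 4 columns, 1 per library. Exon lengths, GC contents and coordinates came from GENCODE 29, which held 58611 of the IDs. Exon lengths cover all exons of a gene, and GC contents its longest transcript. Estimated reads are TPM times exon length, scaled per library; below 20 reads, 90.8 to 92.2% of these lay within 0.02 of a whole number, and from 20 to 200 reads 65.7 to 67.4% did; they gave exact (Clopper-Pearson) 95% intervals of ratios.

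Genes with a mean of at least 1 TPM were tested with limma 3.58.1 (R 4.3.3) on log2(TPM + 1), a pseudocount of 1 that understates changes of low genes, two-sided, with a trend on intensity; p-values were adjusted by Benjamini-Hochberg and called under 0.05. The fit was checked on simulated data whose noise did not depend on level and in which no temperature effect differed between the lines. That setting differs from these libraries, so the calls draw no support from it. Alternatives were other pseudocounts (0.1 and 5), no minimum, a minimum of 5 TPM, centring on the median, rescaling without mitochondrially encoded genes, protein-coding genes only, adjustment for GC content (lowess, span 0.3), no trend, no block, and each library left out. The adjustment for GC content was run for temperature alone.

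The members and lists were chosen with earlier results of these data known. All tested collagens are named; of each pathway list up to 3 genes each way between lines were named by size of difference. Non-coding genes with a collagen-like symbol (10) were left out, as was CERT1, whose older symbol matches but which is not a collagen.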

Additional observations from a re-analysis of the deposited data

Results flagged for a closer look

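COL4A2 had a TPM ratio of 40 °C over 37 °C of 0.934 in B-CPAP and 1.03 in TPC-1, with counting intervals on opposite sides of 1. ITGA2, the alpha chain of a collagen-binding integrin, had a ratio of 1.46 in B-CPAP and 0.885 in TPC-1, also with intervals on opposite sides of 1. Each line moved in its own direction with 1 library per temperature, and neither difference between the lines was tested. COL4A2 is 62.0% G and C and ITGA2 40.2%. Temperature differences of protein-coding genes fell with GC content, with Spearman's rho of -0.80 in B-CPAP and -0.59 in TPC-1. The ratios given here are not adjusted for GC content, and its part in them was not tested.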

How the results depend on the processing

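Of the 23 tested collagens 21 passed between the lines. The count ran from 18 to 22 under the alternatives that kept all libraries, apart from the minimum of 5 TPM. The adjustment for GC content was not run between the lines. Among single collagens, COL4A1 and COL8A1 lost their calls without the intensity trend (limma adjusted p = 0.0864 and 0.0621), COL4A1, COL8A1 and COL27A1 without the block for temperature (0.0844, 0.0661 and 0.0538), and COL8A1 with no minimum level (0.0796). With a minimum of 5 TPM 13 of 15 passed, since fewer genes were tested. Without the block for temperature 18 collagens passed and 42 of 59 pathway genes (46 with it). With 1 library left out as well, which leaves no degree of freedom for the block, the collagen count ran from 15 to 18 and the pathway count from 22 to 33, while 19.5 to 38.4% of all tested genes passed. In those fits the line left with 1 library is assumed to vary like the other. Between the lines 1 collagen reversed, COL12A1, whose difference ran from -0.494 to 0.0868 with 1 library left out and no block and was above 0 without B-CPAP at 37 °C. No collagen passed for temperature under any alternative run, including a minimum of 5 TPM, where 8.57% of all genes passed, and protein-coding genes alone, where 11.4% did. Of the pathway lists 2 passed for temperature with a minimum of 5 TPM (PLOD2 and ITGB1, both higher at 40 °C). With protein-coding genes alone 7 did (FN1, PLOD2, FKBP14, ITGB1 and P4HA1 higher, PLOD3 and TGM2 lower); the cause was not tested. With a pseudocount of 0.1, 1 collagen was 2-fold apart in TPC-1, COL15A1, with 0.0260 TPM at 40 °C, against 0.174 TPM at 37 °C.

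Centring moved the median difference of all tested genes between the lines to 0.08, against -0.05 uncentred, and for temperature to -0.06, against 0.08. Temperature differences of collagens, none of which passed, reversed as follows, and the cause was not tested. Adjusted for GC content they were 0.16 for COL1A1, -0.22 for COL1A2, 0.18 for COL4A2, 0.0412 for COL6A2, 0.0186 for COL9A2, 0.0753 for COL17A1, 0.0434 for COL15A1 and 0.18 for COL18A1. Centred they were -0.11 for COL1A2, -0.0944 for COL5A1, -0.0587 for COL5A3, -0.00386 for COL6A3, -0.0645 for COL7A1, -0.0128 for COL16A1 and -0.0579 for COL13A1. Without mitochondrially encoded genes they were 0.00486 for COL1A1 and 0.0181 for COL4A2. With a pseudocount of 5 COL15A1 was at 0.00151.

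No paired analysis was possible because each group holds 1 library and the replicate numbers pair none of them; temperature or line served as the block in the fits reported. Leaving out a library was not run for temperature, since the difference is then that of a single line. Depth limits the low collagens, such as COL17A1 in B-CPAP with 3 and 4 estimated reads.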
